A study of Mus musculus with 8 samples.

Results

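The genes of the proteasome were examined in the retina of Lpcat1 knockout (KO) and wildtype (WT) mice. Members were taken by symbol, as every gene whose name begins with Psma to Psmg followed by a number, other than the interferon-inducible subunits Psmb8 and Psmb9. RefSeq lists 49 protein-coding genes of this pattern, of which 1, the Psme2 copy Psme2b, has no probe here. The array carried 48 such genes among 20018 genes with a symbol, and 46 of them were bright enough to be tested, beside 14937 tested genes in all. The 48 genes hold 14 subunits of the 20S core, 17 of the 19S cap, 3 variant core subunits, 5 activators or regulators, 7 assembly chaperones and 2 proteins that only bind a proteasome component.

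Total RNA of whole retina from C57BL/6 mice at 2 weeks of age was measured in 4 Lpcat1 WT and 4 Lpcat1 KO samples, each on its own array. LPCAT1 attaches a fatty acid to lysophosphatidylcholine, and the KO is global, so every cell of the animal carried the deletion. Per the study's methods the line was made on a C57BL6/N background and crossed to C57BL6/J, and animals homozygous for the rd8 allele of Crb1 were left out. The labels number the samples but do not say that each came from another mouse, so p-values measure the spread between these samples.

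The proteasome degrades proteins that have been tagged with ubiquitin. Its 20S core is a barrel of alpha and beta rings with the proteolytic sites inside, and the 19S cap recognises, unfolds and feeds in the substrate. Rod photoreceptors make large amounts of a few proteins, and the ubiquitin-proteasome system has been studied in them as a route for the removal of misfolded ones.

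All arrays lay on 1 slide, with WT in one row and KO in the other, so row and genotype cannot be told apart. Probes well above background numbered 35031 to 36373 on the WT arrays and 33113 to 35619 on the KO arrays, and 0 spots were saturated. Lpcat1 itself had a level of -0.42, -0.39, -0.43 and -0.38 in WT and of -0.88, -0.92, -0.9 and -0.78 in KO, a difference of -0.46 (SE 0.04, limma adjusted p = 0.0036). Where its probe lies relative to the deleted part is not known here, so it checks the labels only in part. A level is the log2 signal of a probe minus the 75th percentile on its array, differences are KO minus WT on the log2 scale, and values are listed in the order of replicates 1 to 4.

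Transcripts of the proteasome were mostly slightly lower in KO, by an amount that depended on the scaling of the arrays, and hardly any single gene passed the test. Of 46 tested members, 42 had a lower mean in KO with the 75th percentile shift and 32 under quantile normalization or cyclic loess, against 57.8%, 49.4% and 46.4% of all tested genes. The median difference of the members was -0.07, which is a KO signal of 95.2% of WT, and the median of all tested genes was -0.02. With a fold change above 1.2 required beside an adjusted p below 0.05, limma called 1 member lower (background 1.49% of tested genes) and 0 members higher (background 1.99%). The called gene, Psmc3ip, encodes no subunit of the proteasome. Without the minimum fold change 3 members were lower (background 3.32%) and 0 were higher (background 3.3%). These were Psmb3 of the core, the chaperone Psmd9 and Psmc3ip. At an unadjusted p under 0.05, 15 members were lower (background 15.3%) and 0 were higher (background 10.9%). All 4 KO arrays lay below all 4 WT arrays for 10 members (background 12.4%), and they lay above them for 0 members (background 8.78%).

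**Figure D1:**
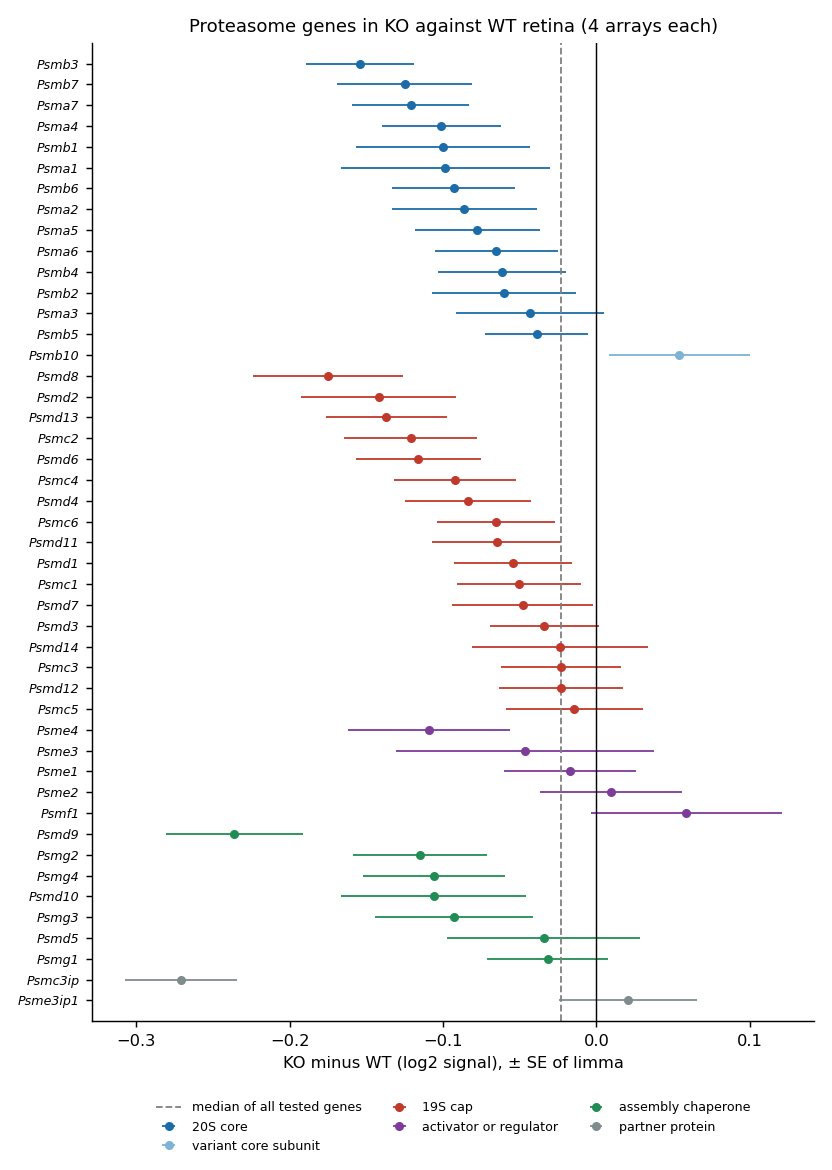
KO minus WT difference (log2 signal, x axis) of the 46 tested proteasome genes (y axis), coloured by class, with bars for the SE of limma from 4 arrays per genotype. With the 75th percentile shift used here all 14 core and 17 cap subunits lie left of 0 (23 of these 31 under quantile normalization or cyclic loess), and the dashed line marks the median of all tested genes at -0.02.

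In the 20S core all 14 constitutive subunits had a lower mean in KO (11 under quantile normalization or cyclic loess), with a median of -0.09 and a range of -0.15 to -0.04. The 7 alpha subunits, which form the outer rings and the gate, and the 7 beta subunits of the inner rings both had a median of -0.09. By limma 0 core subunits were called, 5 were lower at an unadjusted p under 0.05 (background 15.3%), and in 4 every KO array lay below every WT array (background 12.4%). Under quantile normalization and cyclic loess the core medians were -0.05 and -0.04, and Psma3, Psmb4 and Psmb5 were higher.

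Psmb3, a beta subunit without a proteolytic site, had the largest difference in the core. Its level was 5.03, 5.06, 5.06 and 5.11 in WT and 4.92, 4.87, 4.93 and 4.93 in KO. Every KO array lay below every WT array, and the KO arrays differed little among themselves. This gave a difference of -0.15 (SE 0.04, limma adjusted p = 0.0456), a KO signal of 89.9% of WT, and differences of -0.08 under quantile normalization and -0.1 under cyclic loess. The exact two-sided permutation p was 0.0286, the smallest that 4 against 4 arrays allow. Its adjusted p ranged from 0.00601 to 0.211 over the alternatives and was above 0.05 whichever array was left out.

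The 3 constitutive proteolytic subunits did not pass the test. Psmb5, which carries the chymotrypsin-like site, had levels of 6.14, 6.17, 6.18 and 6.17 in WT and 6.12, 6.16, 6.14 and 6.09 in KO. The genotypes overlapped, and the difference of -0.04 (SE 0.03, limma adjusted p = 0.525) turned to 0.05 under quantile normalization and to 0.03 under cyclic loess. Psmb6, the caspase-like subunit, stood at 5.68, 5.67, 5.62 and 5.69 in WT and at 5.57, 5.57, 5.63 and 5.51 in KO. Here only KO replicate 3 reached the WT range, and the difference of -0.09 (SE 0.04, limma adjusted p = 0.206) shrank to -0.02 and -0.03 under these scalings. Psmb7, the trypsin-like subunit, stood at 3.45, 3.48, 3.56 and 3.56 in WT and at 3.35, 3.36, 3.4 and 3.46 in KO. KO replicate 4 was the one array that overlapped with WT, and the difference was -0.12 (SE 0.04, limma adjusted p = 0.132), or -0.09 and -0.08 under these scalings.

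Among the alpha subunits, Psma7 had the largest difference. Its levels were 4.48, 4.54, 4.53 and 4.59 in WT and 4.37, 4.42, 4.44 and 4.42 in KO. The genotypes did not overlap, with a difference of -0.12 (SE 0.04, limma adjusted p = 0.101) that was -0.07 under quantile normalization and cyclic loess. Psma4 and Psma5 also parted the genotypes, with differences of -0.1 and -0.08 and limma adjusted p of 0.163 and 0.296. The second probe of Psma4 differed by -0.05 (SE 0.04, limma adjusted p = 0.468), with overlap between the genotypes. In the other alpha subunits, Psma1, Psma2, Psma3 and Psma6, the genotypes overlapped, with differences of -0.1, -0.09, -0.04 and -0.07 and SEs of 0.04 to 0.07. Psma1 was the least even of these, from 3.55 to 3.86 in WT and from 3.51 to 3.65 in KO. The remaining beta subunits Psmb1, Psmb2 and Psmb4 overlapped too, with differences of -0.1, -0.06 and -0.06.

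Of the 3 variant core subunits 1 could be tested. Psmb10, which takes the place of Psmb7 in the immunoproteasome, had levels of 2.8, 2.81, 2.74 and 2.86 in WT and 2.94, 2.8, 2.83 and 2.86 in KO. The genotypes overlapped, and the difference of 0.05 (SE 0.05, limma adjusted p = 0.518) was positive in every alternative, from 0.03 to 0.09. Psma8, known from the testis, and Psmb11, known from the thymic cortex, did not stand well above background on a single one of the 8 arrays. No difference is given for them.

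Psmb8 and Psmb9, the immunoproteasome subunits that the selection left out, were higher on average. Psmb8 had levels of -1.38, -1.43, -1.21 and -1.39 in WT and of -0.83, -1.16, -1.09 and -0.84 in KO. All KO arrays lay above all WT arrays, but the difference of 0.37 (SE 0.09) had a limma adjusted p of 0.0508. Psmb9 differed by 0.24 (SE 0.1, limma adjusted p = 0.212), with overlap between the genotypes.

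**Figure D2:**
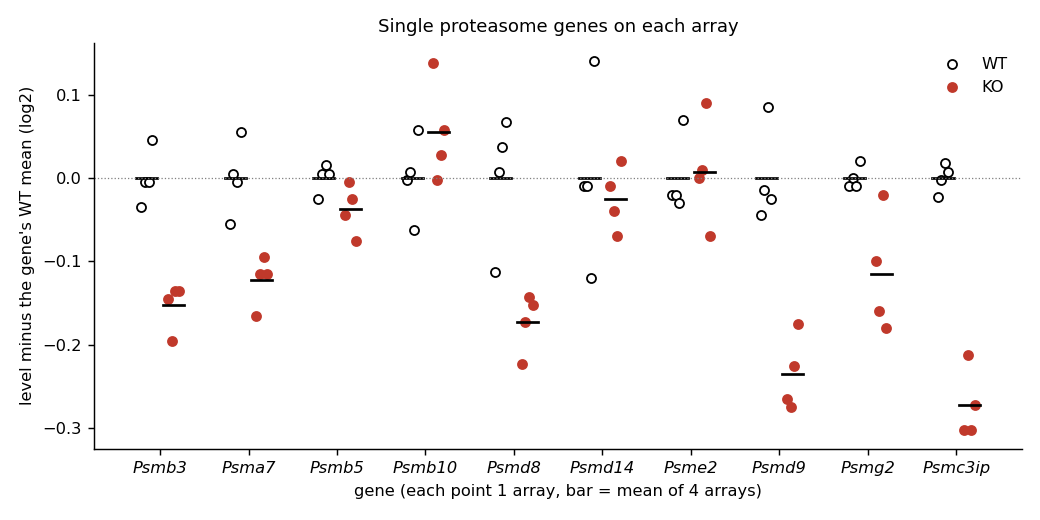
Level of 10 proteasome genes on each array minus the gene's WT mean (log2, y axis), with open points for the 4 WT arrays, filled points for the 4 KO arrays and a bar for each mean. The genotypes part in Psmb3, Psma7, Psmd8, Psmd9, Psmg2 and Psmc3ip and overlap in Psmb5, Psmb10, Psmd14 and Psme2.

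In the 19S cap all 17 subunits had a lower mean in KO (12 under quantile normalization or cyclic loess), from -0.17 to -0.01 with a median of -0.06. The 6 ATPases (Psmc1 to Psmc6), which form the ring that unfolds the substrate, and the 11 non-ATPase subunits both had a median of -0.06. Limma called 0 cap subunits, and 6 were lower at an unadjusted p under 0.05 (background 15.3%). In 3 of the 17, Psmd6, Psmd8 and Psmd13, every KO array lay below every WT array (background 12.4%). The cap median was -0.02 under either of these scalings, and Psmc1, Psmc3, Psmc5, Psmd3 and Psmd12 were higher.

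Psmd8, a lid subunit, had the largest difference of the cap. Its levels were 3.52, 3.64, 3.67 and 3.7 in WT and 3.41, 3.46, 3.49 and 3.48 in KO. WT replicate 1 was the lowest of its genotype and still lay above all KO arrays. The difference was -0.17 (SE 0.05, limma adjusted p = 0.0755, range over the alternatives 0.0168 to 0.236), a KO signal of 88.6% of WT.

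The genotypes also parted in the lid subunits Psmd13 and Psmd6. Psmd13 stood at 3.03, 3.07, 3.05 and 3.14 in WT and at 2.89, 2.95, 2.94 and 2.95 in KO, a difference of -0.14 (SE 0.04, limma adjusted p = 0.0823). Psmd6 stood at 2.98, 2.94, 3.03 and 3.03 in WT and at 2.83, 2.86, 2.89 and 2.94 in KO, where the highest KO and the lowest WT array met to 2 decimals, a difference of -0.12 (SE 0.04, limma adjusted p = 0.134). The other non-ATPase subunits Psmd1, Psmd3, Psmd7, Psmd11 and Psmd12 differed by -0.05, -0.03, -0.05, -0.06 and -0.02, with overlap in each.

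Psmd2, a large scaffold subunit at the base that binds shuttle proteins, had levels of 4.34, 4.37, 4.52 and 4.46 in WT and 4.26, 4.25, 4.27 and 4.34 in KO. KO replicate 4 met the lowest WT array, and the difference was -0.14 (SE 0.05, limma adjusted p = 0.138), or -0.09 under quantile normalization and cyclic loess. Psmd4, a ubiquitin receptor, stood at 5.33, 5.37, 5.34 and 5.35 in WT and at 5.19, 5.25, 5.34 and 5.27 in KO. Its KO arrays spread more widely than its WT arrays, and the difference of -0.08 (SE 0.04, limma adjusted p = 0.263) shrank to 0 under quantile normalization and to -0.02 under cyclic loess. Psmd14, the deubiquitinase of the lid, stood at 1.32, 1.32, 1.21 and 1.47 in WT and at 1.32, 1.29, 1.26 and 1.35 in KO. The KO arrays lay within the WT range, with a difference of -0.02 (SE 0.06, limma adjusted p = 0.837). Psmc2 was the ATPase with the largest difference, -0.12 (SE 0.04, limma adjusted p = 0.139; -0.07 under both of these scalings), and Psmc5 the one with the smallest, -0.01. The ATPases between them, Psmc1, Psmc3, Psmc4 and Psmc6, differed by -0.05, -0.02, -0.09 and -0.07, with overlap between the genotypes in each. The other probe of Psmc2 gave -0.14 (SE 0.04, limma adjusted p = 0.0963).

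Of the 5 activators and regulators 3 had a lower and 2 a higher mean in KO, with a median of -0.02. Under quantile normalization and cyclic loess 2 were lower and 3 higher, with a median of 0.02, while with normexp background correction 5 were lower, with a median of -0.05. In the fit with the 75th percentile shift limma called 0 of them and gave 0 an unadjusted p under 0.05. Psme1 and Psme2, the alpha and beta subunits of the interferon-inducible PA28 activator, differed by -0.02 (SE 0.04, limma adjusted p = 0.843) and 0.01 (SE 0.05, limma adjusted p = 0.922). The sign of either changed with the scaling or background correction. Psme2 had levels of 3.43, 3.43, 3.42 and 3.52 in WT and 3.45, 3.46, 3.54 and 3.38 in KO, so KO held both its highest and its lowest array. Whether its probes also bind the copy Psme2b was not tested.

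Psme3, the nuclear PA28 gamma, varied most between arrays, from 0.53 to 0.75 in WT and from 0.48 to 0.84 in KO (difference -0.05, SE 0.08, limma adjusted p = 0.778). Psme4, a single-chain activator tied to acetylated histones, had levels of 0.21, 0.11, 0.13 and 0.01 in WT and -0.03, 0.09, -0.03 and -0.01 in KO. KO replicate 2 and WT replicate 4 overlapped, and the difference was -0.11 (SE 0.05, limma adjusted p = 0.257). Psmf1, which binds the core and was first described as its inhibitor, differed by 0.06 (SE 0.06, limma adjusted p = 0.612) and by -0.03 after normexp background correction.

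Assembly chaperones hold precursors of the core or the cap until the particle is complete and are not part of the finished proteasome. All 7 had a lower mean in KO (6 under quantile normalization or cyclic loess), with a median of -0.11 and a range of -0.24 to -0.03. Limma called 0 of them, and 3 were lower at an unadjusted p under 0.05 (background 15.3%). Their median under either of these scalings was -0.09.

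Psmd9, a chaperone of the ATPase ring, had levels of 0.52, 0.55, 0.65 and 0.54 in WT and 0.3, 0.29, 0.34 and 0.39 in KO. The highest KO array lay well below the lowest WT array. The difference was -0.24 (SE 0.04, limma adjusted p = 0.0284, range over the alternatives 0.00645 to 0.0919), a KO signal of 84.9% of WT and less than the minimum fold change. The second probe of Psmd9 differed by -0.08 (SE 0.04, limma adjusted p = 0.266), so the size rested on the probe. Psmd10, the ATPase ring chaperone also called gankyrin, differed by -0.11 (SE 0.06, limma adjusted p = 0.33) and Psmd5, another of this group, by -0.03 (SE 0.06, limma adjusted p = 0.781).

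Of the chaperones that build the alpha ring, Psmg2 had levels of 1.83, 1.84, 1.83 and 1.86 in WT and 1.74, 1.68, 1.82 and 1.66 in KO. The WT arrays were tight, and KO replicate 3 came close to them without overlap. The difference was -0.12 (SE 0.04, limma adjusted p = 0.159). Its partner Psmg1 differed by -0.03 (SE 0.04, limma adjusted p = 0.667). The second pair of alpha ring chaperones, Psmg3 and Psmg4, differed by -0.09 and -0.11 (SE 0.05 each, limma adjusted p = 0.32 and 0.209), with overlap between the genotypes.

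The largest difference of all members was in Psmc3ip, whose product is a cofactor of meiotic recombination that was named for its interaction with PSMC3. Its level was -0.87, -0.85, -0.83 and -0.84 in WT and -1.15, -1.06, -1.15 and -1.12 in KO. The genotypes were far apart compared with their spread. The difference was -0.27 (SE 0.04, limma adjusted p = 0.0109), a KO signal of 82.9% of WT, close to the minimum fold change of 1.2. The gene was not called under any of the 4 other scalings, nor with normexp, without the filter on dim probes, with the deposited values, with the replicate block, or without KO replicate 1 or KO replicate 3, and its difference stayed between -0.29 and -0.22 in all alternatives. Psme3ip1, which binds PA28 gamma, differed by 0.02 (SE 0.04, limma adjusted p = 0.817).

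The classes were also followed from array to array. Taken as the median deviation from each gene's WT mean, the core stood at -0.04, -0.01, 0.01 and 0.04 in WT and at -0.1, -0.08, -0.04 and -0.1 in KO. The cap stood at -0.03, -0.01, 0.01 and 0.04 in WT and at -0.1, -0.08, -0.05 and -0.06 in KO. The chaperones stood at -0.05, 0, 0.02 and 0.02 in WT and at -0.17, -0.06, -0.02 and -0.1 in KO. The cap medians parted the genotypes, the core medians met at -0.04, and the chaperone medians overlapped. For all tested genes the KO medians were -0.03, -0.03, -0.01 and -0.01. In both core and cap, WT replicate 1 had the lowest and WT replicate 4 the highest median of its genotype.

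**Figure D3:**
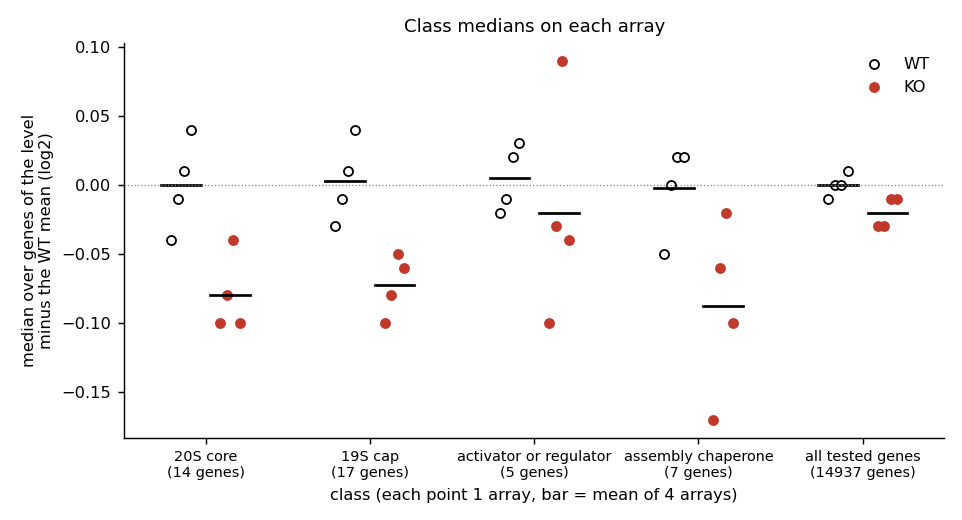
Median over the genes of a class of the level on each array minus the gene's WT mean (log2, y axis), for 4 WT arrays (open) and 4 KO arrays (filled), with bars for the means. Core and cap lie at -0.1 to -0.04 in KO, the activators and regulators spread from -0.1 to 0.09, and all tested genes lie at -0.03 to -0.01.

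The differences were then set beside those of other genes with probes of like brightness. With the 75th percentile shift, the median difference of the other tested genes was -0.01 at a WT level below 0, -0.02 from 0 to 2, -0.03 from 2 to 4 and -0.05 at 4 and over. The median of the proteasome genes was -0.06 over the 10 members from 0 to 2, -0.07 over the 19 from 2 to 4 and -0.08 over the 15 at 4 and over. In these ranges 90%, 84.2% and 100% of the members had a lower mean in KO, against 57%, 63.8% and 71.3% of the other genes. From 0 to 2 the genotypes parted downwards in 2 of 10 members (20%) and in 12.2% of the other genes. In the range from 2 to 4 the genotypes parted downwards in 5 of 19 members (26.3%) and in 19.1% of the other genes. At 4 and over they did so in 2 of 15 members (13.3%) and in 26.6% of the other genes. Under cyclic loess, which removes a trend with brightness, the members' medians in these 3 ranges were -0.04, -0.03 and -0.02 and those of the other genes 0, 0 and 0.01. Each range held fewer than 20 members, and the 2 members below 0, Psmc3ip and Psmg4, had a median of -0.19.

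**Figure D4:**
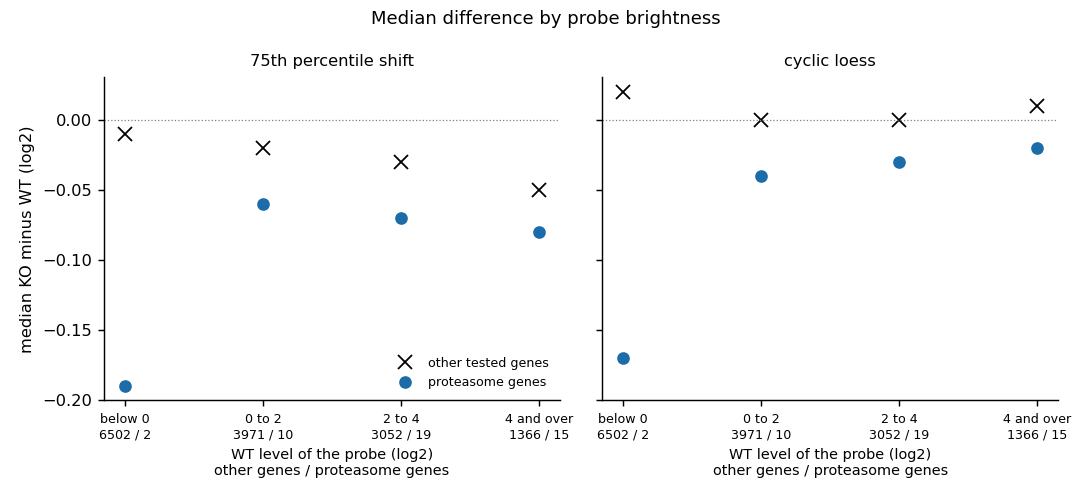
Median KO minus WT difference (log2, y axis) of proteasome genes (circles) and other tested genes (crosses) in 4 ranges of the probe's WT level (x axis, with the number of other genes and of proteasome genes), with the 75th percentile shift (left) and cyclic loess (right). At a WT level of 4 and over the 15 members have a median of -0.08 on the left and -0.02 on the right, while the other genes go from -0.05 to 0.01.

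When the percentile was taken over probes detected on all arrays, 40 of the 46 members were lower in KO. The 31 constitutive core and cap subunits went from 31 lower to 23 lower and 8 higher under quantile normalization and under cyclic loess. The share of higher probes among all called probes moved too, from 470 of 992 to 518 of 907 with quantile normalization, 563 of 937 with the percentile of detected probes and 629 of 970 with cyclic loess.

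**Figure D5:**
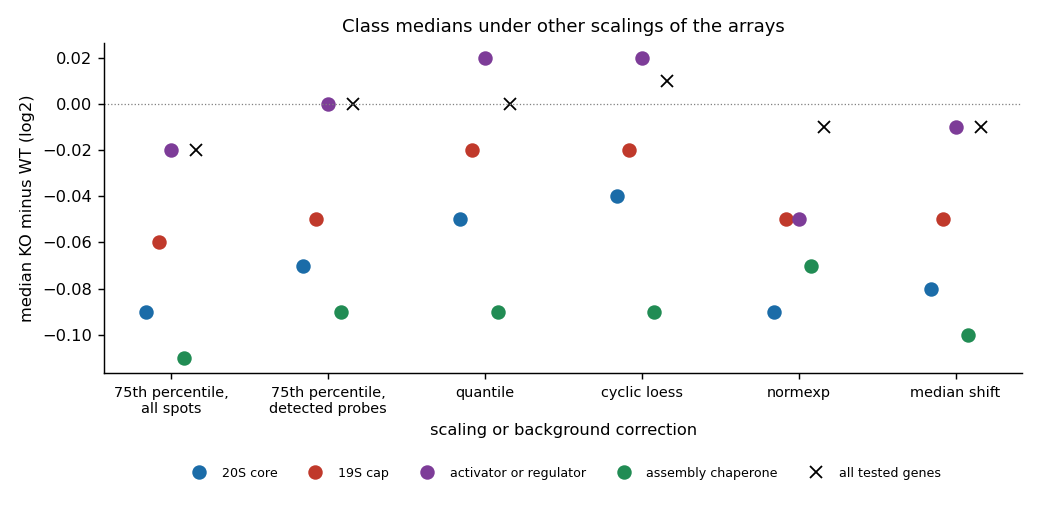
Median KO minus WT difference (log2, y axis) of 4 classes of proteasome genes and of all tested genes (crosses) under 6 treatments of the arrays (x axis). Core, cap and chaperones stay below 0 in all 6, while the activators and regulators range from -0.05 with normexp to 0.02 with quantile normalization and cyclic loess.

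The promoters of the members were searched for elements that are known from proteasome and housekeeping genes, as a description. RefSeq windows (GRCm38.p6) from 250 bases before to 50 after the start were at hand for 40 of the 48 members, in 44 windows, beside 32851 windows of all genes. Letters were matched on both strands. CCGGAAG, the ETS site, was in 10 of 15 cap windows (66.7%, 9 of 14 genes) and in 1 of 12 core windows (8.33%), against 8.86% of all windows. It was also in 33.3% of activator or regulator windows, 33.3% of chaperone windows and 2 of 3 partner protein windows, and in 38.6% of member windows together. TGACNNNGC, the core of the antioxidant response element bound by the factors NRF1 and NRF2, was in 6 of 44 member windows (13.6%) and in 12.4% of all. TGANTCA, the AP-1 site, was in 4.55% of member windows and in 7.81% of all, and overlapped the antioxidant core in 149 of all windows and 0 member windows. CCAAT, the NF-Y site, was in 34.1% of member windows (50% of core and 26.7% of cap windows) and in 37.4% of all. Shown here are the 60 bases before the start, with matches in capitals, for 4 cap subunits with an ETS match there, for Psmb3 and Psmd9, which were lower by adjusted p alone, for the proteolytic subunit Psmb5 with its antioxidant core, and for the called Psmc3ip.
Psmc1 (chr12:100110142-100110201, plus strand): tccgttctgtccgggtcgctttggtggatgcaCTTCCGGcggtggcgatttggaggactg
Psmd6 (chr14:14120946-14121005, minus strand): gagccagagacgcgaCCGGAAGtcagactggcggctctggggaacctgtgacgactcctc
Psmd11 (chr11:80428555-80428614, plus strand): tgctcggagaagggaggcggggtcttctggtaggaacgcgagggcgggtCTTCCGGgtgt
Psmd12 (chr11:107479468-107479527, plus strand): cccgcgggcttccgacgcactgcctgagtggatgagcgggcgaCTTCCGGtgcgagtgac
Psmb5 (chr14:54617996-54618055, minus strand): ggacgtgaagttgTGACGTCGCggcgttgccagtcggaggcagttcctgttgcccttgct
Psmd9 (chr5:123228130-123228189, plus strand): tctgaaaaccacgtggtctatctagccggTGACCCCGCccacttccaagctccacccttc
Psmb3 (chr11:97703374-97703433, plus strand): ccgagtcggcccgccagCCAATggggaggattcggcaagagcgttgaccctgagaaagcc
Psmc3ip (chr11:101095436-101095495, minus strand): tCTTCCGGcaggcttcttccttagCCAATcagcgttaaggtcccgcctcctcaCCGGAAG
In these stretches the ETS match began 28 bases before the start in Psmc1, 11 in Psmd11, 17 in Psmd12 and 45 in Psmd6. The KO minus WT differences of these 4 cap genes were -0.05, -0.06, -0.02 and -0.12, with limma adjusted p of 0.492, 0.393, 0.768 and 0.134. The antioxidant core began 47 bases before the start in Psmb5 and 31 in Psmd9, genes whose differences were -0.04 and -0.24. Psmc3ip held ETS matches beginning 59 and 7 bases before the start, on opposite strands, and a CCAAT between them.

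Proteasome parts and bound proteins whose names do not follow the Psm pattern were then described from a list of 9 genes. Beside the cap subunits Sem1 and Adrm1 and the maturation factor Pomp, the list held bound enzymes and adaptors. Limma called 0 of the 9 genes, 2 were lower at an unadjusted p under 0.05 (background 15.3%), and the median of the list was 0.01. The cap subunit Sem1 differed by -0.12 (SE 0.04, limma adjusted p = 0.108) and the ubiquitin receptor Adrm1 by -0.09 (SE 0.04, limma adjusted p = 0.169), and both parted the genotypes. Pomp, which guides the maturation of the beta ring, had levels of 3.63, 3.62, 3.66 and 3.69 in WT and 3.75, 3.7, 3.69 and 3.52 in KO. KO held the highest and the lowest array, and the difference was 0.01 (SE 0.05, limma adjusted p = 0.895).

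Genes that control proteasome transcription numbered 4, with 0 called, and 2, Nfe2l1 and Nfe2l2, were higher at an unadjusted p under 0.05 (background 10.9%). Nfe2l1, which encodes the NRF1 factor that raises proteasome genes when proteolysis falls short, had levels of -1.46, -1.4, -1.56 and -1.44 in WT and -1.36, -1.42, -1.23 and -1.16 in KO. Only KO replicate 2 lay within the WT range, and the difference was 0.17 (SE 0.07, limma adjusted p = 0.163). Nfe2l2, which encodes NRF2, differed by 0.15 (SE 0.06, limma adjusted p = 0.156). The other 2 genes encode enzymes that process NRF1 and had a lower mean in KO, with differences of -0.17 in Ngly1 (SE 0.09, limma adjusted p = 0.306) and -0.08 in Ddi2 (SE 0.04, limma adjusted p = 0.318). Among 14 genes of ubiquitin and substrate delivery limma called 0, and at an unadjusted p under 0.05 there was 1 higher (background 10.9%) and 2 lower (background 15.3%). Their median was -0.03.

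The interferon-inducible genes of antigen processing were described from a list of 11, which holds Psmb8 and Psmb9. All 11 had a higher mean in KO, with a median of 0.24. Limma called 3 of them higher (background 1.99%), and in 6 all KO arrays lay above all WT arrays (background 8.78%). Nlrc5, a transactivator of MHC class I genes, had the largest difference, 0.61 (SE 0.52, limma adjusted p = 0.513), and it rested on KO replicate 3, at -2.26 where the other KO arrays were at -4.66, -4.86 and -4.16. H2-K1, a classical MHC class I heavy chain, rose from 0.35, 0.5, 0.47 and 0.59 to 1.01, 0.9, 0.92 and 0.9 (difference 0.45, SE 0.06, limma adjusted p = 0.00966). B2m, its light chain, rose by 0.44 (SE 0.09, limma adjusted p = 0.0381), and Tap2, a subunit of the peptide transporter, rose by 0.29 (SE 0.04, limma adjusted p = 0.0153). The genotypes did not overlap in these 3 genes. Psme1, Psme2 and Psmb10, which interferon also induces, differed by -0.02, 0.01 and 0.05.

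Markers of 11 cell types or tissues were read in the same fit. In bulk samples, fewer cells of a type and less RNA per cell cannot be told apart. Of 14 rod markers 13 had a lower mean in KO (background 57.8%) and 3 were called lower (background 1.49%), with a median of -0.21, and their summed signal relative to the 75th percentile was 2890 to 3000 on the WT arrays against 2440 to 2630 on the KO arrays. The rod markers had WT means of 5.65 to 8.68. At a WT level of 4 and over, 71.3% of the tested genes outside the proteasome members had a lower mean in KO. Of 13 microglia markers 13 had a higher mean and 7 were called higher (background 1.99%), with a median of 0.34, and WT summed to 16.5 to 18 against 20.8 to 21.8 for KO. Of 7 Müller glia markers 3 were called higher, with sums of 283 to 303 and 341 to 351, and of 8 cone markers 2 were called higher, with sums of 207 to 213 and 236 to 247. Limma called 0 markers of the other 7 lists. All 4 endothelial markers had a lower mean in KO (background 57.8%), 3 of them at an unadjusted p under 0.05 (background 15.3%) and 2 with every KO array below every WT array (background 12.4%), with a median of -0.17 and sums of 9.05 to 10.8 in WT against 8.34 to 8.72 in KO. The highest WT sum rested in part on Cdh5, at 0.56 in WT replicate 3 and at -1.6, -1.37 and -1.45 on the other WT arrays. The 6 amacrine and horizontal cell markers had a median of 0.13, with sums of 76.3 to 78.8 and 83.5 to 86.4, and the 6 ganglion cell markers a median of 0.04, with sums of 149 to 152 and 153 to 160. The sums of bipolar cell (158 to 184 and 168 to 183), pigment epithelium (5.3 to 6.71 and 5.25 to 7.03), lens (0.29 to 0.334 and 0.284 to 0.43) and blood markers (35.6 to 47.5 and 38.5 to 55.4) overlapped. All markers on the array were tested but 2 of the 5 of the lens. The same sum over the 31 constitutive proteasome subunits was 677 to 712 on the WT arrays and 651 to 673 on the KO arrays. Over all tested genes this sum was also lower in KO, at 105000 to 106000 on the WT arrays and 101000 to 103000 on the KO arrays. The part of the cell types in the proteasome values was not tested.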

How the data were processed

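Whole retina RNA was hybridised in 1 colour to Agilent arrays, and the authors quantified the scans with Agilent Feature Extraction 10.7.1.1, per the submitters' processing notes. The deposited scanner files hold background-subtracted intensity on a linear scale, and a deposited table of all samples holds the authors' log2 values after a 75th percentile shift, used as an alternative. Here the log2 of the processed intensity minus the 75th percentile of the array (control spots left out) was tested with limma 3.58.1 (lmFit, eBayes; R 4.3.3) on 4 KO against 4 WT arrays, without covariates and with Benjamini-Hochberg adjustment over 33972 of 55681 probes, those well above background on all 4 arrays of a genotype. Flagged spots (86 to 147 per array) were left out. Calls needed a fold change above 1.2 beside an adjusted p below 0.05. RefSeq symbols were found by transcript accession for 26413 probes (47.4%). A gene's value was its probe with the highest mean over 8 arrays. Of the members 11 had a second probe, and both probes differed in sign for Psmd12 (-0.02 and 0.01) and Psme2 (0.01 and -0.03).

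Genes named were the called ones, the 2 largest rises and falls of each class, the proteolytic and variant subunits, Psme1, Psme2, Psmd4, Psmd14, the cap chaperones, Psmc3ip, Nfe2l1, Pomp, Psmb8, Psmb9 and those below background, and the other genes were named after their values were seen. Members and lists were chosen with earlier results of these data known. Alternatives were other scalings, background correction, filters, tests, thresholds, a replicate block, the deposited table and leaving out each array. The fit was tested on simulated data. All per-sample columns in the tables were used (0 unused). The number of arrays limits the precision.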

Additional observations from a re-analysis of the deposited data

Results flagged for a closer look

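In 4 of 92 sets of 4 arrays (each tested member in each genotype), 1 array stood apart from the other 3 by more than Dixon's critical value, and chance alone gives about 1 in 20. Psma5 was at 3.24 in KO replicate 4 and at 3.33 to 3.34 on the other KO arrays. Psmd13 was at 2.89 in KO replicate 1 and at 2.94 to 2.95 on the others. Psme2 was at 3.52 in WT replicate 4 and at 3.42 to 3.43 on the other WT arrays. Psme4 was at 0.09 in KO replicate 2 and at -0.03 to -0.01 on the others. Each array was named once.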

How the results depend on the processing

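No member was called higher under any alternative (0 throughout). The count of members called lower, 1, became 0 with cyclic loess, normexp, quantile normalization, a shift to the median or to the 75th percentile of detected probes, no filter on dim probes, a minimum fold change of 1.5 or the deposited table, and 3 with no minimum fold change. It ranged from 0 to 1 when single arrays were left out, and was 0 without KO replicate 1 and without KO replicate 3. Limma with a trend and robust eBayes gave 8 members an adjusted p under 0.05, against 3. The correlations of the deviations by replicate number were 0.25, 0.07, 0.04 and 0.11. Correlations between unlike numbers were not set beside them, so whether the numbers pair the samples was not tested. With replicate number as a block 0 members and 395 probes were called instead of 1 and 992. The median of all members moved to -0.04 with quantile normalization and -0.03 with cyclic loess, that of the core to -0.05 and -0.04, and that of the cap to -0.02 in both. With single arrays left out, these medians ranged from -0.09 to -0.06, from -0.1 to -0.07 and from -0.07 to -0.05, that of the activators and regulators from -0.04 to 0 and that of the chaperones from -0.12 to -0.07. Small differences changed sign. Psmb5 became 0.05 with quantile normalization and 0.03 with cyclic loess, and Psme1 0.02 in both and 0 with the percentile of detected probes. Psme2 became -0.02 with normexp and -0.01 with the mean of its probes, and Psmf1 -0.03 with normexp. With single arrays left out, the reversed values were 0.02 for Psmd14 (WT replicate 4), 0.01 for Psmd5 (KO replicate 1), 0 for Psme1 (WT replicate 3), 0 and -0.02 for Psme2 (WT replicate 3 and KO replicate 3), 0 for Psme3 (KO replicate 2) and 0 for Psme3ip1 (WT replicate 1 and KO replicate 4). The cause of these changes was not tested.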
